A study of Catharanthus roseus with 15 samples.

Results

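The early response of *Catharanthus roseus* leaves to ethephon was measured by comparing leaves taken 3 h after an ethephon spray (ETH 3 h) with leaves taken at 0 h. These are 6 of the 15 RNA-seq libraries of the series, 3 at ETH 3 h and 3 at 0 h, and they were chosen by the hormone and time named in the sample labels, with no measured value involved. The plants were seedlings of the cultivar Vitae Rose Red, the tissue was leaf in every group, and ethephon, a compound that releases ethylene inside the plant, was applied to the leaves at 100 µM. The 0 h leaves were the controls of the time course. Leaves taken 3 h after 100 µM methyl jasmonate (MJ 3 h) and leaves taken 24 h after ethephon (ETH 24 h), with 3 libraries each, were used to see whether a value at ETH 3 h differed from that under the other hormone or at the later time. The labels give seedlings of 2 weeks and the methods seedlings of 4 weeks. How many plants went into a library is not given, so p-values measure the spread between libraries. No library of leaves taken 3 h after a water spray was analysed here, and ethephon, spraying and the time of day cannot be told apart in this comparison.

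Ethylene binds receptors of the ETR1 and EIN4 kind, which in air keep the kinase CTR1 active, and CTR1 in turn holds back the membrane protein EIN2. When ethylene is bound this brake is released, EIN2 signals to the nucleus, and transcription factors of the EIN3/EIL family accumulate because the F-box proteins EBF1 and EBF2 no longer remove them. In Arabidopsis, EIN3 switches on genes of ERF transcription factors and also EBF2, which closes a feedback loop. *C. roseus* is known for its monoterpenoid indole alkaloids, among them catharanthine and vindoline, whose coupled product is the parent of vinblastine.

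The 6 libraries held 24643794 to 31168281 counts, and 18008 of 33829 genes were tested. Levels are given as CPM, counts scaled to a common library size, after scaling by TMM, which removes differences in library composition. The ETH 3 h library of replicate 1 stood apart. Across all tested genes its log2 levels had a Pearson correlation of 0.932 and 0.925 with the ETH 3 h libraries of replicates 2 and 3, against 0.984 between those libraries. At 602 genes (3.34%) it was more than 4 times above both other ETH 3 h libraries, compared with 13 to 73 genes in any of the other 5 libraries. All 12 factors listed as marks of young leaf tissue were highest in that library. Their summed level was 217, 23.0 and 20.01 CPM in the ETH 3 h libraries, against 30.6, 31.6 and 35.3 CPM at 0 h. The study placed these factors in its turquoise co-expression module, built from these same libraries, so their agreement is not independent evidence. A gene named YAB2 that is not among the 12, CRO_000294, was at 78.7, 29.7 and 34.4 CPM at ETH 3 h. At 0 h it was at 54.2, 50.4 and 93.4 CPM, and it was not called. SPCH (CRO_010214), which starts the stomatal lineage in Arabidopsis, was at 21.1, 0.353 and 0.200 CPM at ETH 3 h, against 0.199, 0.0362 and 0.0899 CPM at 0 h, and was not called. The summed level of 4 epidermal alkaloid genes (T16H1/2, T16OMT, T3O and T3R) was 766, 193 and 202 CPM at ETH 3 h and 365, 341 and 646 CPM at 0 h, while that of the photosynthetic markers PSAF, CH1 and CLPR1 was 2891, 2171 and 2217 CPM at ETH 3 h and 3681, 3133 and 6435 CPM at 0 h. All 3 leaf markers were thus well detected in every library. The part of tissue makeup in the results below was not tested, and in bulk leaf fewer cells of a type and less RNA per cell cannot be told apart.

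Against 0 h, 858 genes stood higher at ETH 3 h (4.76% of those tested) and 1286 stood lower (7.14%), 11.9% in all. A gene was called when its adjusted p in edgeR was under 0.05 and its fold exceeded 1.5 in either direction. An unadjusted p under 0.05 was reached by 32.0% of the tested genes. The called rises were fewer than the called falls and reached further only at the largest folds. A fold of 2 was exceeded by 402 rises and 711 falls. Of the rises, 132 exceeded a fold of 4 and 57 a fold of 8, and of the falls 96 and 25 did. The median log2 fold change was 0.95 for the rises, -1.05 for the falls and 0.05 for all tested genes. Added over each library, the genes called higher came to 95268 to 106480 CPM at ETH 3 h and 37218 to 47217 CPM at 0 h. The genes called lower came to 88756 to 98915 CPM at ETH 3 h and 162900 to 275700 CPM at 0 h. These sums are scaled by TMM and are not shares of the counts. They describe genes that the test had already chosen. Calls were made in every range of expression, from 172 rises and 215 falls among the 6003 genes with the lowest mean level to 406 rises and 650 falls among the 6003 with the highest. In 2124 of the 2144 called genes the ETH 3 h and 0 h libraries did not overlap. Of all tested genes, 17.8% had all ETH 3 h libraries above all 0 h libraries and 16.9% all below. With library totals in place of TMM, 1143 genes were higher and 989 lower, so that rises made up 53.6% of the calls against 40.0% with TMM, and the median of all genes moved by 0.10 on the log2 scale. Without ETH 3 h replicate 1 the calls were 932 higher and 1360 lower, and 1748 of the 2144 genes were called again. The total fell to 1328 without ETH 3 h replicate 2, 1356 without 0 h replicate 1 and 1008 without 0 h replicate 3, and to 1110 when the 6 libraries were fitted alone. Each of the 2144 genes kept its direction when any one of the 6 libraries was left out, which groups without overlap all but fix in advance. Of these genes, 873 (319 higher and 554 lower), or 40.7%, were called every time.

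**Figure D1:**
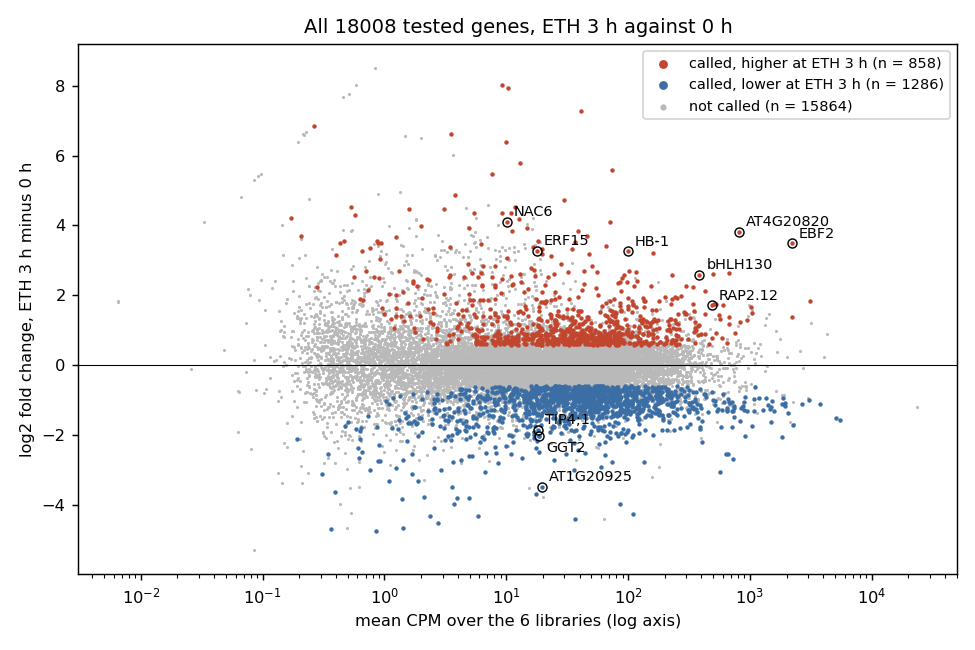
Log2 fold change (ETH 3 h minus 0 h) of the 18008 tested genes against their mean CPM over the 6 libraries on a log axis, with the 858 genes called higher in red, the 1286 called lower in blue, the rest in grey and the named genes circled. EBF2 and AT4G20820 combined a high level with a rise above 3 on the log2 scale.

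Of the ethylene signalling genes, 4 of the 8 tested rose and none fell, where 4.76% of all tested genes rose. All 8 had a positive log2 fold change, as did 9688 of the 18008 tested genes, and their median was 0.59. EBF2 (CRO_005880), the F-box protein that directs EIN3 to degradation, was at 3929, 4111 and 4129.5 CPM in the ETH 3 h libraries, against 381, 434 and 269.9 CPM at 0 h. Its lowest ETH 3 h library was thus far above its highest 0 h library, with a log2 fold change of 3.49 ± 0.353 (SE by edgeR, adjusted p = 2.98e-04), which is 11.2-fold. MKK9 (CRO_011505), a MAP kinase kinase, was at 426, 446 and 436 CPM at ETH 3 h and at 112, 135 and 88.4 CPM at 0 h (log2 fold change 1.97 ± 0.211 SE by edgeR, adjusted p = 3.33e-04). The receptor EIN4 (CRO_020097) was at 37.0, 32.8 and 34.3 CPM at ETH 3 h and at 15.3, 16.8 and 14.3 CPM at 0 h. Its groups did not overlap and the log2 fold change was 1.16 (SE 0.170, adjusted p = 0.00191 in edgeR). CTR1 (CRO_000074), the kinase below the receptors, was at 84.5, 96.9 and 105 CPM at ETH 3 h and at 58.0, 57.8 and 56.0 CPM at 0 h (log2 fold change 0.74 ± 0.114 SE by edgeR, adjusted p = 0.00246). The genes that rose therefore included the receptor and kinase that act against ethylene signalling in air, and the F-box protein that acts against EIN3.

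The remaining members of the pathway moved less. CrEIN3 (CRO_017077), the transcription factor itself, was at 864, 710.4 and 700.3 CPM at ETH 3 h and at 577, 567 and 534 CPM at 0 h. All ETH 3 h libraries were above all 0 h libraries, but the fold of 1.36 (log2 0.44, SE 0.138, adjusted p = 0.0492 in edgeR) was below the threshold of 1.5. Whichever of the 6 libraries was left out, the adjusted p of CrEIN3 in edgeR was above 0.05 (0.0726 to 0.167). The receptor ETR1 (CRO_016354) had a mean of 22.5 ± 0.860 CPM at ETH 3 h and 18.2 ± 0.395 CPM at 0 h (SD, n = 3 each, adjusted p = 0.0692 in edgeR). The EIN2 copies CRO_006809 and CRO_030101 had log2 fold changes of 0.15 and 0.09 and were not called. CrEIL1 (CRO_031898) had at most 0.169 CPM in any of the 6 libraries and was not tested. The calls of EBF2, MKK9, EIN4 and CTR1 were kept whichever of the 6 libraries was left out (adjusted p reaching 0.0135) and by DESeq2 and limma voom. The study placed all 8 tested genes in co-expression modules built from these same libraries, so the direction of the list is not independent evidence.

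**Figure D2:**
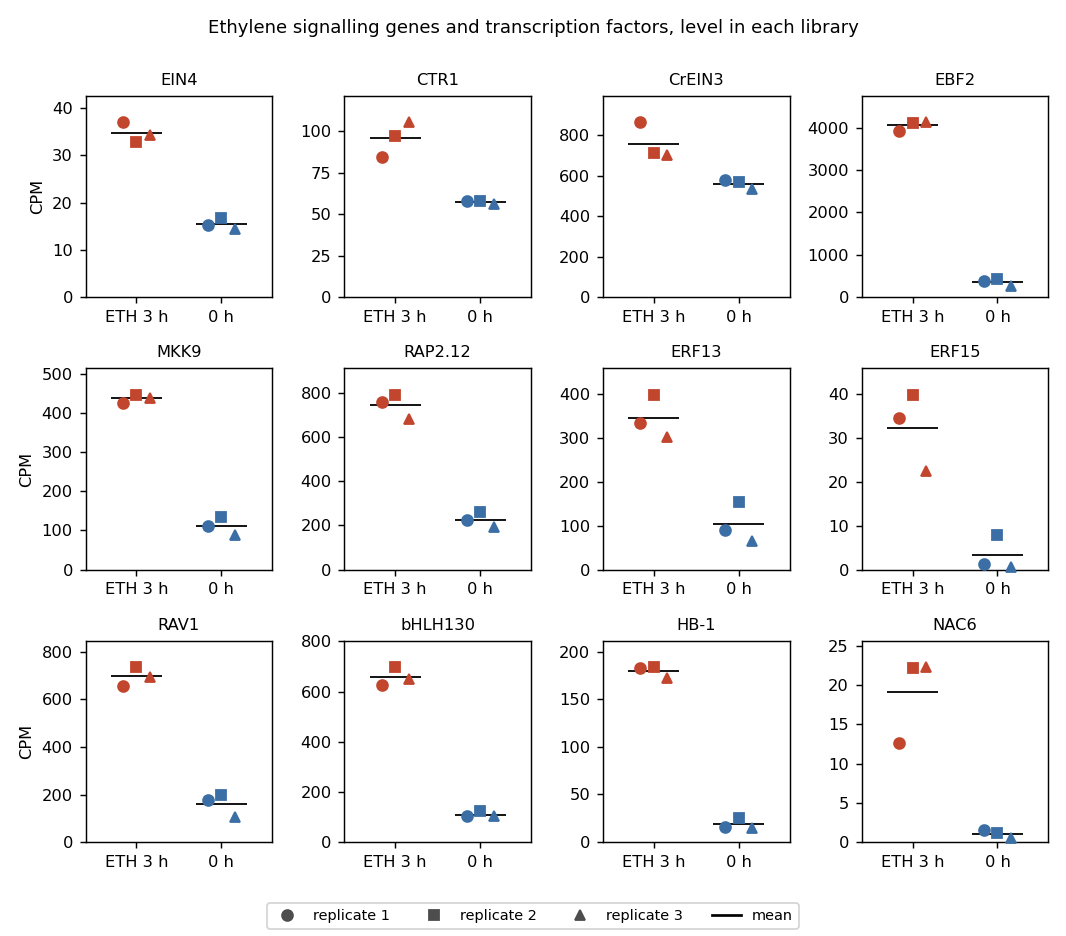
CPM of 12 genes in each ETH 3 h library (red, left) and each 0 h library (blue, right), with the mean of each group as a line and replicates as circle, square and triangle. In every panel the ETH 3 h points lie above the 0 h points, by the largest factor in NAC6 and by the smallest in CrEIN3.

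AP2/ERF factors, the family that carries ethylene signals to target genes, rose in 4 of 6 tested members, against 4.76% of all tested genes, with a median log2 fold change of 1.93. This list and the lists below were chosen with earlier results of these data known, so their counts are not independent evidence. RAP2.12 (CRO_001062), a group VII ERF known in Arabidopsis from the response to low oxygen, was at 757, 792 and 681 CPM at ETH 3 h and at 224, 262 and 192 CPM at 0 h (log2 fold change 1.72 ± 0.153 SE by edgeR, adjusted p = 1.82e-04). RAV1 (CRO_031165), which carries an AP2 and a B3 domain, was at 657, 736 and 694 CPM at ETH 3 h and at 177, 198 and 105 CPM at 0 h (log2 fold change 2.119 ± 0.296 SE by edgeR, adjusted p = 0.00155). ERF13 (CRO_008428) was at 333, 398 and 301 CPM at ETH 3 h and at 90.1, 153 and 65.8 CPM at 0 h. It rose by 1.74 on the log2 scale (SE 0.303, adjusted p = 0.00404 in edgeR). ERF15 (CRO_019273) was at 34.4, 39.9 and 22.4 CPM at ETH 3 h and at 1.35, 7.90 and 0.674 CPM at 0 h, so that replicate 2 was the highest of both groups. Its log2 fold change was 3.27 (SE 0.753, adjusted p = 0.0136 in edgeR), and the call was lost without 0 h replicate 1 (adjusted p = 0.0548). The members that were not called, CRF3 (CRO_009254) and CRF4 (CRO_011803), of the cytokinin response factor group, were at 3.10 and 3.89 CPM in ETH 3 h replicate 1 and at or below 0.471 CPM in the other ETH 3 h libraries. At 0 h they were at 0.254 to 1.03 and at 0.159 to 0.543 CPM. The log2 fold change of CRF3 was 1.27 with all libraries and -0.60 without ETH 3 h replicate 1.

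Of 15 bHLH factors, 5 rose and none fell in edgeR, where 4.76% of all tested genes rose and 7.14% fell. DESeq2 called 6 rises and 1 fall among them. bHLH130 (CRO_004901) was at 627, 698 and 652 CPM at ETH 3 h and at 103, 124 and 102 CPM at 0 h, with a log2 fold change of 2.59 ± 0.312 (SE by edgeR, adjusted p = 6.30e-04). bHLH128 (CRO_000849) averaged 107 ± 9.27 CPM at ETH 3 h and 35.3 ± 9.71 CPM at 0 h (SD, n = 3 each), and the bHLH gene CRO_015412 averaged 251 ± 17.3 CPM at ETH 3 h and 103 ± 14.6 CPM at 0 h. PIF4 (CRO_000223), which couples light and temperature to growth, was at 27.7, 57.2 and 41.8 CPM at ETH 3 h and at 17.2, 21.6 and 23.0 CPM at 0 h (log2 fold change 1.03 ± 0.225 SE by edgeR, adjusted p = 0.0106). The largest called rise of a gene with a name or an Arabidopsis match was that of CRO_000811, matched to the bHLH gene AT1G25330, which was at 16.3, 7.02 and 7.87 CPM at ETH 3 h and at 0.278, 0.761 and 0.449 CPM at 0 h. Its log2 fold change was 4.37 (SE 0.590, adjusted p = 0.00128 in edgeR) and its 0 h levels were low. These 5 calls were kept whichever library was left out (adjusted p reaching 0.0437), and only that of PIF4 was lost when the 6 libraries were fitted alone (adjusted p = 0.0764). The median of the list was 0.93, but -0.10 without ETH 3 h replicate 1, and SPCH, which was high in that library alone, is among its members.

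HB-1 (CRO_026277), a homeodomain factor, was at 183, 184 and 173 CPM at ETH 3 h and at 15.98, 25.2 and 14.8 CPM at 0 h, a rise of 3.27 on the log2 scale (SE 0.418, adjusted p = 9.25e-04 in edgeR). NAC6 (CRO_025185) was at 12.7, 22.2 and 22.3 CPM at ETH 3 h and at 1.59, 1.196 and 0.494 CPM at 0 h (log2 fold change 4.11 ± 0.824 SE by edgeR, adjusted p = 0.00745). These were the only 2 of 9 tested homeodomain and NAC members that were called, where 4.76% of all tested genes rose. WRKY4 (CRO_010846) and WRKY7 (CRO_007332), of a family linked to defence and senescence, rose by log2 values of 1.62 (SE 0.307, adjusted p = 0.00591 in edgeR) and 1.12 (SE 0.242, adjusted p = 0.0105), which makes 2 of 6. The remaining WRKY members all had positive log2 fold changes, and DESeq2, limma voom and the fit without 0 h replicate 2 each called 5 of the 6. Of 9 MYB factors, MYB73 (CRO_007250) and MYB5 (CRO_010671) rose by 0.83 and 0.73. Their calls were less stable, since that of MYB73 was lost without ETH 3 h replicate 2, 0 h replicate 1 or 0 h replicate 3 (adjusted p reaching 0.0569) and that of MYB5 without replicate 1 or 2 of ETH 3 h, or 0 h replicate 2 or 3 (adjusted p reaching 0.130). AP3 (CRO_032693), known as a floral MADS factor, was at 99.9, 157 and 81.7 CPM at ETH 3 h and at 52.5, 56.7 and 48.6 CPM at 0 h. It rose by 1.10 on the log2 scale (SE 0.194, adjusted p = 0.00434 in edgeR), and the other 3 floral factors of its list, AGL38, SVP and CAL, were at or below 1.10 CPM in all 6 libraries and not called. NFXL1 (CRO_019411), a zinc finger factor, rose by 0.60 (SE 0.124, adjusted p = 0.00831 in edgeR), and without ETH 3 h replicate 2, 0 h replicate 1 or 0 h replicate 3 its fold was below 1.5 (log2 0.49 to 0.58).

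Of the 51 listed regulators in the study's green and pink co-expression modules, 19 rose and none fell, where 4.76% of all tested genes rose, and the median log2 fold change was 0.52. The study formed these modules on the same libraries, so their direction is no independent evidence. Without ETH 3 h replicate 1 the count was again 19. It was 16 without ETH 3 h replicate 2, 0 h replicate 1 or 0 h replicate 3. In edgeR 11.9% of all tested genes were called and 32.0% had an unadjusted p under 0.05. The 33 tested factors of the turquoise module held no call, and 2 of them had an unadjusted p under 0.05, while DESeq2 called 1 of them and limma voom 0. Their median was 0.82, but -0.47 without ETH 3 h replicate 1.

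The genes with the largest rises outside the regulators included CRO_000174, matched to AT4G20820 of the FAD-binding berberine family of oxidases. It was at 1666, 1518 and 1374 CPM at ETH 3 h and at 114, 148 and 59.8 CPM at 0 h, with a log2 fold change of 3.82 ± 0.589 (SE by edgeR, adjusted p = 0.00246). The lowest ETH 3 h library was thus far above the highest 0 h library. OPT3 and AT1G66430, named as members of the gene lists, rose less and were not among the largest rises. OPT3 (CRO_000102), an oligopeptide transporter that in Arabidopsis serves iron and copper transport, was at 189, 341 and 362.8 CPM at ETH 3 h and at 126, 96.7 and 150.2 CPM at 0 h (log2 fold change 1.26 ± 0.317 SE by edgeR, adjusted p = 0.0200). Its call was lost without replicate 2 or 3 of ETH 3 h, or 0 h replicate 1 or 2 (adjusted p reaching 0.0691). AT1G66430 (CRO_000061), a carbohydrate kinase of the pfkB family, was at 190.0, 164 and 173 CPM at ETH 3 h and at 53.2, 49.8 and 62.1 CPM at 0 h (log2 fold change 1.67 ± 0.135 SE by edgeR, adjusted p = 1.82e-04). Of the genes without a name, CRO_003531 was at 13.1, 27.4 and 21.3 CPM at ETH 3 h and at 0.119, 0.0725 and 0.0449 CPM at 0 h, where it had 3, 2 and 1 counts (adjusted p = 2.98e-04 in edgeR), so that its fold is poorly determined. CRO_013307 was at 52.8, 2.16 and 0.200 CPM at ETH 3 h, with 3, 1 and 1 counts at 0 h. ETH 3 h replicate 1 held nearly all of its reads, and the call was lost without 0 h replicate 3 (adjusted p = 0.0580 in edgeR).

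The largest called fall of a named gene without overlap between the groups was that of CRO_000328, matched to AT1G20925 of the auxin efflux carrier family. It was at 2.65, 3.41 and 3.60 CPM at ETH 3 h and at 31.2, 40.8 and 35.4 CPM at 0 h. The 0 h level was 11.1-fold the ETH 3 h level (log2 fold change -3.48 ± 0.505 SE by edgeR, adjusted p = 0.00188), and the groups were far apart in every pair of libraries. It was the only one of 9 auxin genes that was called, where 11.9% of all tested genes were called in either direction. GGT2 (CRO_000346), a gamma-glutamyl transpeptidase of glutathione turnover, was at 6.31, 8.12 and 7.39 CPM at ETH 3 h and at 29.2, 16.4 and 43.1 CPM at 0 h (log2 fold change -2.02 ± 0.474 SE by edgeR, adjusted p = 0.0146). Without 0 h replicate 3, its highest library, the call was lost (adjusted p = 0.0630). TIP4;1 (CRO_000548), a water channel of the vacuolar membrane, was at 9.44, 8.87 and 5.43 CPM at ETH 3 h and at 26.4, 21.6 and 37.6 CPM at 0 h. It fell by 1.85 on the log2 scale (SE 0.458, adjusted p = 0.0187 by edgeR) and was no longer called without replicate 2 or 3 of ETH 3 h, or 0 h replicate 3 (adjusted p reaching 0.0799). AT1G29240 (CRO_000611), a protein of unknown function, was at 20.3, 19.97 and 18.9 CPM at ETH 3 h and at 74.2, 60.4 and 96.7 CPM at 0 h, and its fall by 1.96 (SE 0.218, adjusted p = 3.82e-04 in edgeR) was kept whichever library was left out. AT1G76590 (CRO_000453), a PLATZ zinc-binding factor, fell by 1.73, a call lost without replicate 3 of ETH 3 h, or 0 h replicate 1 or 3 (adjusted p reaching 0.0981). The unnamed genes with the largest called falls at a mean above 1 CPM and without overlap, CRO_030273 and CRO_032242, were at 0 to 0.157 and 0.120 to 0.338 CPM at ETH 3 h and at 0.942 to 5.53 and 2.54 to 8.40 CPM at 0 h. The call of CRO_030273 was lost without replicate 2 or 3 of ETH 3 h, or 0 h replicate 3 (adjusted p reaching 0.0939), while that of CRO_032242 was kept.

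Of 13 tested chloroplast genes, 4 were called lower and none higher, where 7.14% of all tested genes were called lower. All 13 had a negative log2 fold change, with a median of -0.65 against 0.05 for all genes. In 8 of them every ETH 3 h library was below every 0 h library, as it was in 16.9% of all tested genes. CLPP5 (CRO_000529), a subunit of the stromal Clp protease, was at 121, 107 and 129 CPM at ETH 3 h and at 227, 197 and 262 CPM at 0 h (log2 fold change -0.95 ± 0.159 SE by edgeR, adjusted p = 0.00359). AT3G18890 (CRO_000825), the Arabidopsis import protein Tic62, was at 97.5, 116 and 84.1 CPM at ETH 3 h and at 202, 146 and 333 CPM at 0 h (log2 fold change -1.20 ± 0.331 SE by edgeR, adjusted p = 0.0296). ALB4 (CRO_000979), which inserts proteins into thylakoids, fell by 0.69 (SE 0.158, adjusted p = 0.0128 in edgeR), and NPQ7 (CRO_000399), named for an Arabidopsis photoprotection mutant, fell by 0.65 (SE 0.179, adjusted p = 0.0294). PSAF (CRO_000717), a subunit of photosystem I, was at 2546, 1805 and 1811 CPM at ETH 3 h and at 3259, 2726 and 5774 CPM at 0 h, and was not called (adjusted p = 0.0977). The 0 h library of replicate 3 was the highest for all 5 of these genes. Without it only 1 of the 13 was called, CLPP5, and the median was -0.52, and 2 were called without ETH 3 h replicate 2, ETH 3 h replicate 3 or 0 h replicate 1. AT3G18890 lost its call when any library except 0 h replicate 2 was left out (adjusted p reaching 0.137) and NPQ7 without replicate 2 or 3 of ETH 3 h, or 0 h replicate 1 or 3 (adjusted p reaching 0.144), while ALB4 had a fold below 1.5 without 0 h replicate 3 (log2 -0.52) and with library totals.

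**Figure D3:**
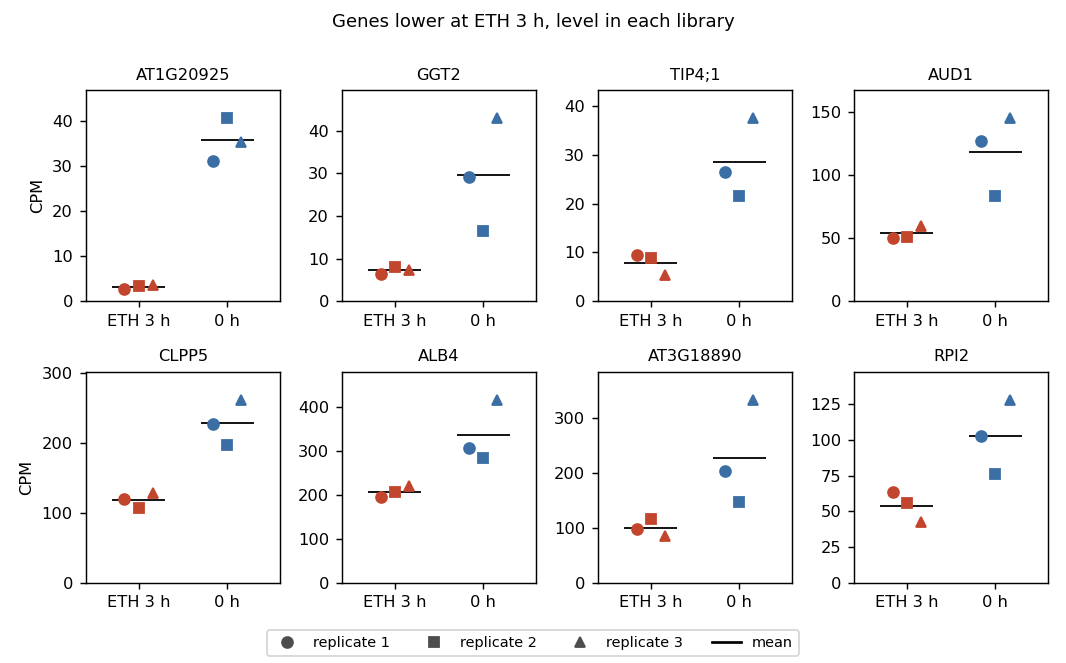
CPM of 8 genes called lower, in each ETH 3 h library (red, left) and each 0 h library (blue, right), with the mean of each group as a line. The groups do not overlap in any panel, and 0 h replicate 3 (triangle) is the highest library for all of them except AT1G20925.

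AUD1 (CRO_000504), which makes the UDP-xylose of cell wall polymers, was at 50.4, 51.3 and 59.7 CPM at ETH 3 h and at 127, 83.8 and 146 CPM at 0 h (log2 fold change -1.14 ± 0.179 SE by edgeR, adjusted p = 0.00269), and it was the only called gene of 13 in the cell wall list, where 11.9% of all tested genes were called in either direction. RPI2 (CRO_000299), ribose 5-phosphate isomerase of the pentose phosphate pathway, and AT1G56560 (CRO_000044), a neutral invertase, fell by 0.93 (SE 0.236, adjusted p = 0.0206 in edgeR) and 1.02 (SE 0.302, adjusted p = 0.0390). They were the 2 falls among 9 sugar and starch genes, of which 1 rose. RPI2 was lost without replicate 2 or 3 of ETH 3 h, or 0 h replicate 1 or 3 (adjusted p reaching 0.101), and AT1G56560 without replicate 1 or 3 of ETH 3 h, or 0 h replicate 1 or 3 (adjusted p reaching 0.147). AT3G59440 (CRO_000449), a calcium-binding EF-hand protein, fell to 8.43, 20.8 and 13.2 CPM at ETH 3 h, against 44.2, 36.7 and 42.3 CPM at 0 h (log2 fold change -1.54 ± 0.321 SE by edgeR, adjusted p = 0.00890). It was the only call among 13 calcium genes. Among 7 genes of abscisic acid and drought, AFP2 (CRO_000141), which dampens abscisic acid signalling in Arabidopsis, rose by 0.81 (SE 0.142, adjusted p = 0.00414 in edgeR), and AT3G21620 (CRO_000163), of a family that responds early to dehydration, fell by 0.73 (SE 0.145, adjusted p = 0.00717). AFP3 (CRO_000268) was called at an adjusted p of 0.0493, and its call was lost whichever of the 6 libraries was left out (adjusted p reaching 0.130).

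Of 9 ribosomal protein genes 2 rose, where 4.76% of all tested genes did. HLL (CRO_000814) and AT2G31610 (CRO_000900) rose by 1.002 (SE 0.155, adjusted p = 0.00250 in edgeR) and 0.63 (SE 0.173, adjusted p = 0.0287), and the call of AT2G31610 was lost without replicate 2 or 3 of ETH 3 h, or 0 h replicate 1 or 3 (adjusted p reaching 0.120). Of 11 ubiquitin and proteasome genes, 10 had a positive log2 fold change with a median of 0.26, but only PUX4 (CRO_000688) was called, at 0.59, and DESeq2 did not call it. Its call was also lost without replicate 2 or 3 of ETH 3 h, or 0 h replicate 2 or 3 (adjusted p reaching 0.0764, or a fold below 1.5). An unadjusted p under 0.05 in edgeR was reached by 32.0% of all tested genes. The 11 heat shock genes and the 14 chromatin genes held no call with edgeR, which gave an unadjusted p under 0.05 to 2 genes of each list. DESeq2 called none of them and limma voom called 2 heat shock genes and 1 chromatin gene, as edgeR did without ETH 3 h replicate 1. Of 10 division and replication genes, BUB3.2 (CRO_000003) rose by 0.78 (SE 0.200, adjusted p = 0.0220 in edgeR) and was not called without replicate 1 of ETH 3 h, or 0 h replicate 1 or 3 (adjusted p reaching 0.101).

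The listed alkaloid genes, of the catharanthine branch and of the iridoid, vindoline and ajmalicine pathways, held no edgeR call at 3 h. This covers the listed genes only, not the whole alkaloid pathway. Of all tested genes, 11.9% were called and 32.0% had an unadjusted p under 0.05 in edgeR. All ETH 3 h libraries were above all 0 h libraries in 17.8% of them and below in 16.9%. All 4 genes listed under the catharanthine branch (GO, CS, TS and the coupling peroxidase PRX1) had positive log2 fold changes, with a median of 1.002. TS (CRO_011212, tabersonine synthase) was at 1842, 1946 and 1742 CPM at ETH 3 h and at 813, 1268 and 392 CPM at 0 h, so that the spread lay in the 0 h libraries. Without 0 h replicate 2 the list had 1 call. Of the 4, 3 had unadjusted p-values under 0.05 in edgeR, and DESeq2 called 3, all but PRX1, while limma voom called all 4. The 9 genes of the iridoid, vindoline and ajmalicine pathways had a median of -0.20, no call and no unadjusted p under 0.05 in edgeR, no call in DESeq2 and 1 in limma voom, and each of the 9 overlapped between the groups. Their median was -1.18, with 1 gene called lower, without ETH 3 h replicate 1, the library in which the summed epidermal genes were highest. LOX2 (CRO_000213), a lipoxygenase of jasmonate synthesis, was at 85.1, 51.0 and 201 CPM at ETH 3 h and at 591, 266 and 70.0 CPM at 0 h. The groups overlapped and the gene was not called.

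**Figure D4:**
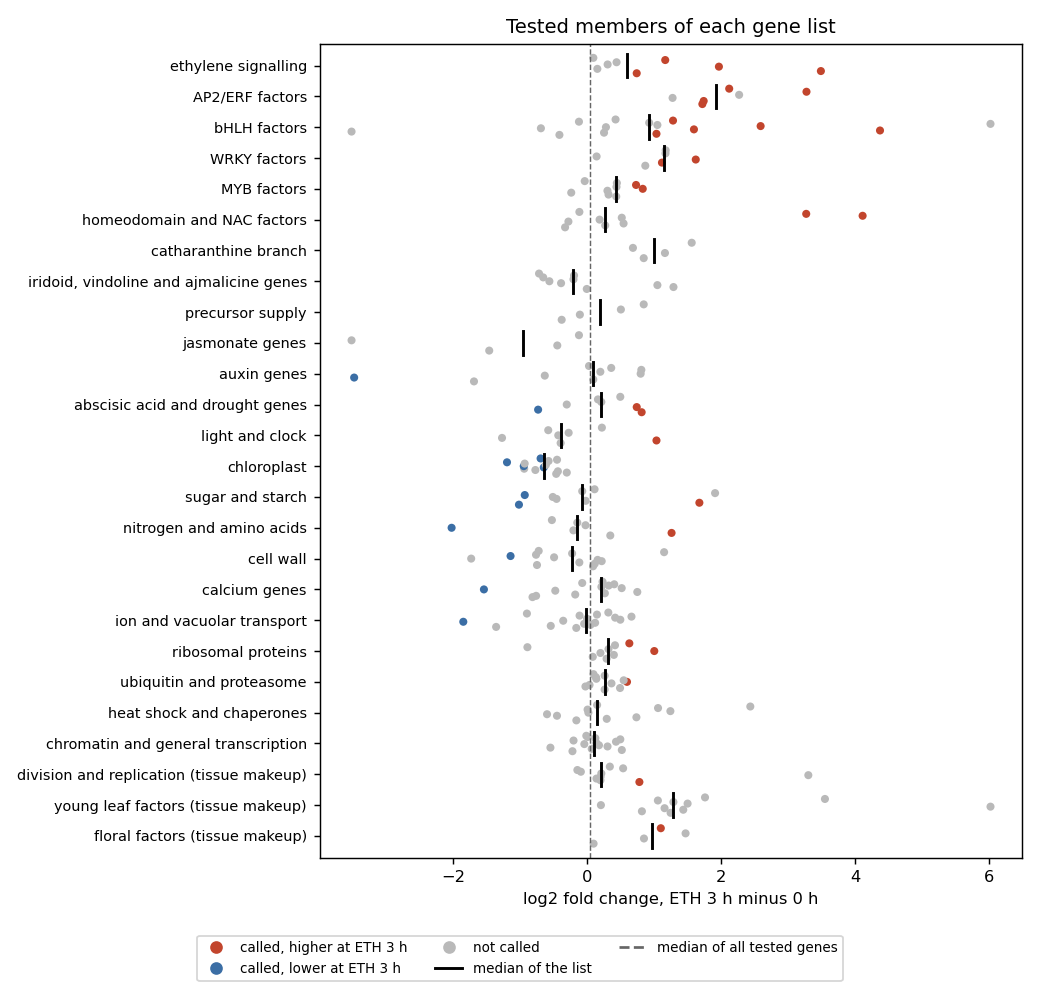
Log2 fold change (ETH 3 h minus 0 h) of each tested member of 26 gene lists, with called rises in red, called falls in blue, the rest in grey, the list median as a short black line and that of all tested genes, 0.05, as a dashed line. The medians of the ethylene, AP2/ERF and WRKY lists lie to the right of the dashed line and that of the chloroplast list to the left. Other medians to the right include those of the bHLH, catharanthine branch, floral and young leaf lists. The young leaf list is of the study's turquoise module.

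To see which values differed between the hormones at 3 h, the ETH 3 h libraries were compared directly with the MJ 3 h libraries. Relative to MJ 3 h, 599 genes (3.33% of those tested) stood higher at ETH 3 h and 642 (3.57%) stood lower, 6.89% in all. With library totals in place of TMM, 755 were higher and 534 lower, so that 58.6% of the calls were higher, against 48.3% with TMM. Among the MJ 3 h libraries replicate 1 was also the highest for the young leaf factors. Their summed level was 217, 23.0 and 20.01 CPM at ETH 3 h and 337, 16.2 and 47.3 CPM at MJ 3 h. The study's module of these factors was also built from the MJ 3 h libraries, and the part of this in the comparison was not tested. Leaving out replicate 1 gave a total of 1394 calls when it was the ETH 3 h library and 1293 when it was the MJ 3 h library. The total was 789 without MJ 3 h replicate 3 and 175 when the 6 libraries of both hormones were fitted alone. Of the ethylene signalling genes 3 of 8 were higher, and these were EBF2 by 2.73 on the log2 scale (SE 0.341, adjusted p = 4.94e-04 in edgeR), MKK9 by 1.38 and EIN4 by 1.29. EBF2 was at 4056 ± 111 CPM at ETH 3 h and at 613 ± 235 CPM at MJ 3 h (SD, n = 3 each). All 4 AP2/ERF factors that rose over 0 h were also higher than at MJ 3 h, with ERF13 by 1.503, RAV1 by 1.62, RAP2.12 by 0.69 and ERF15 by 2.78. CTR1, NAC6, WRKY4 and WRKY7 were not called between the hormones (log2 0.42, 1.97, 0.67 and 0.50), CTR1 because its fold was below 1.5. OPT3 was higher by 2.51 (SE 0.331, adjusted p = 7.32e-04 in edgeR). AT1G20925 was lower, with a mean of 3.22 CPM at ETH 3 h and 49.3 CPM at MJ 3 h (log2 difference -3.94 ± 0.515 SE by edgeR, adjusted p = 6.97e-04). LOX2 was lower as well (log2 difference -4.67 ± 0.840 SE by edgeR, adjusted p = 0.00498). The median difference of the 13 chloroplast genes was -0.13. Of the genes named here as higher or lower than at MJ 3 h, only ERF15 lost its call when a library was left out, which it did without any of the ETH 3 h libraries and without replicate 1 or 3 of MJ 3 h (adjusted p reaching 0.117).

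Between 3 and 24 h of ethephon, 321 genes (1.78%) went up and 331 (1.84%) went down by ETH 24 h, 3.62% in all, but this count was 20 to 539 when any one library was left out, with 53 without ETH 3 h replicate 2 and 82, 92 and 20 without ETH 24 h replicates 1, 2 and 3. EBF2 averaged 4193 CPM at ETH 24 h, against 4056 CPM at ETH 3 h, a difference edgeR did not call (log2 fold change 0.05 ± 0.320 SE, adjusted p = 0.948), and EIN4 averaged 35.5 CPM at ETH 24 h, against 34.7 CPM at ETH 3 h. CTR1 and MKK9 had log2 fold changes of -0.05 and -0.23 and were not called either. ERF13 was the only AP2/ERF factor called, with a mean of 120.2 CPM at ETH 24 h, against 344 CPM at ETH 3 h, which gave -1.52 ± 0.301 (SE) on the log2 scale (adjusted p = 0.0205 by edgeR). AUD1, AT1G29240 and AT3G21620, which were lower at ETH 3 h than at 0 h, were higher at ETH 24 h than at ETH 3 h by 0.71, 1.20 and 0.91, and BUB3.2 was lower (log2 -0.91). These calls depended on single libraries. That of AUD1 was lost whichever of the 6 was left out (adjusted p reaching 0.154), and that of BUB3.2 without ETH 3 h replicate 1 or 2 or any ETH 24 h replicate (adjusted p reaching 0.116). ERF13 was lost without replicate 2 of ETH 3 h or any ETH 24 h library (adjusted p reaching 0.0853), AT1G29240 without replicate 2 of ETH 3 h or ETH 24 h replicate 1 or 3 (adjusted p reaching 0.0732), and AT3G21620 without replicate 2 of ETH 3 h or ETH 24 h replicate 2 or 3 (adjusted p reaching 0.0589).

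**Figure D5:**
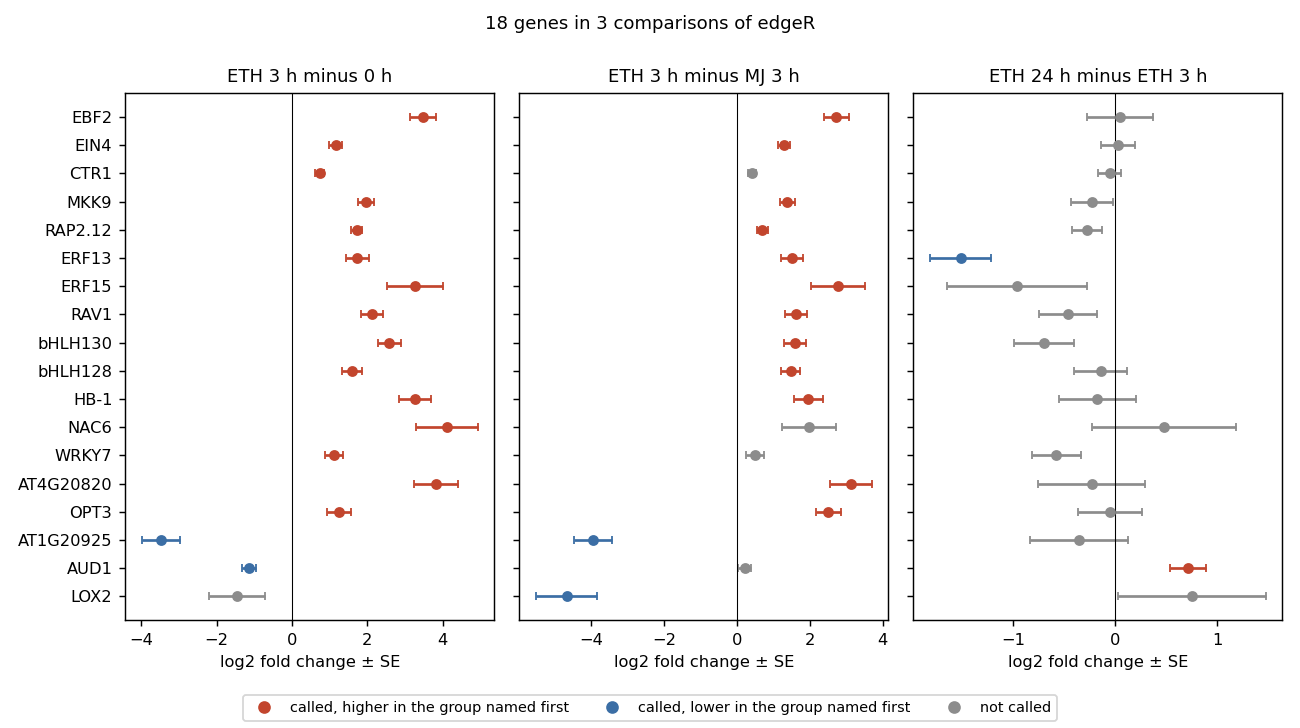
Log2 fold change with its SE for 18 genes in 3 comparisons of the edgeR fit, with genes called higher in the first named group in red, lower in blue and the rest in grey. The ethylene and ERF genes lie to the right in the ETH 3 h minus 0 h and ETH 3 h minus MJ 3 h panels, and in the ETH 24 h minus ETH 3 h panel only ERF13 and AUD1 are called.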

How the data were processed

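Leaf RNA of *C. roseus* was sequenced as paired reads from a stranded kit. The authors aligned the reads with HISAT2 (2.0.4, per the submitters' processing notes) and deposited raw HTSeq counts per gene for 33829 genes in 15 libraries. The methods name more than one genome source. The build behind the counts and the strand setting are not given in the sources used here. The extraction text in the labels names an animal tissue and was not used. No 2 libraries held identical values.

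Counts were fitted with edgeR 4.0.16 in R 4.3.3 (quasi-likelihood test, TMM, filterByExpr, 18008 genes tested) over all 15 libraries in 5 groups, with p-values adjusted by Benjamini-Hochberg over all tested genes. A call needed an adjusted p under 0.05 together with a change of more than 1.5-fold in either direction, the study's own limits. SE is the log2 fold change divided by the square root of F. DESeq2 1.42.0, limma 3.58.1 (voom), other scalings, filters and thresholds, a replicate block and leaving out each library were alternatives, and scripts were tested on simulated data. Leaving out libraries for single genes in the other comparisons was chosen after seeing the data. Totals of about this size leave differences between libraries, not counting error, as the main limit for all but the lowest genes.

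The comparison and the gene lists were chosen with earlier results of these data known. Beside list members, the genes named are, per direction, the 5 largest called changes with a name and no overlap, and the 2 largest without a name at a mean above 1 CPM. Names are the study's or those of its Arabidopsis matches, which 635 IDs had. Columns of the study's own comparisons were not used.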

Additional observations from a re-analysis of the deposited data

Results flagged for a closer look

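These genes differed between ETH 3 h and MJ 3 h leaves by a direct edgeR test of the difference (adjusted p from 4.66e-04 to 0.0498), given as log2 ETH 3 h minus MJ 3 h. The ethylene genes EBF2 (2.73), MKK9 (1.38) and EIN4 (1.29) were higher at ETH 3 h, as were the factors ERF15 (2.78), HB-1 (1.96), RAV1 (1.62), bHLH130 (1.58), ERF13 (1.503), bHLH128 (1.47), WRKY53 (1.24), AP3 (1.14), the bHLH gene CRO_015412 (1.07), PIF4 (0.80), NFXL1 (0.70), MYB73 (0.69) and RAP2.12 (0.69). Of other genes, CRO_013307 (6.80), CRO_003531 (5.54), AT4G20820 (3.12), OPT3 (2.51), CS, catharanthine synthase (1.91), and AT1G66430 (0.91) were higher. AT3G21620 (-0.64), AT1G20925 (-3.94), LOX2 (-4.67) and CRO_030273 (-5.44) were lower at ETH 3 h.

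Of these 26 genes, 8 lost the call when a library was left out. ERF15 and WRKY53 lost it without any of the ETH 3 h libraries and without replicate 1 or 3 of MJ 3 h (adjusted p reaching 0.117 and 0.101), CS without replicate 2 or 3 of either hormone (reaching 0.143), PIF4 without replicate 2 or 3 of ETH 3 h, or 1 or 3 of MJ 3 h (reaching 0.153) and MYB73 without replicate 2 or 3 of ETH 3 h, or 1 or 2 of MJ 3 h (reaching 0.140). CRO_013307 lost it without replicate 1 of ETH 3 h, or 2 or 3 of MJ 3 h (reaching 0.0965), AT3G21620 without replicate 2 of ETH 3 h or 3 of MJ 3 h (reaching 0.0672) and CRO_030273 without replicate 2 or 3 of ETH 3 h (reaching 0.0655). The edgeR fit gives these adjusted p-values.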

How the results depend on the processing

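For ETH 3 h against 0 h, 2144 genes were called, against 3975 with limma voom, 1113 at a fold above 2, 303 when glmTreat tested against a fold of 1.5, 1110 when the 6 libraries were fitted alone, and 1008 to 2431 when one library was left out. For ETH 3 h against MJ 3 h, 1241 became 475 with glmTreat, 175 with both groups alone and 789 to 1441 with one library left out. For ETH 24 h against ETH 3 h, 652 became 1354 with DESeq2, 2218 with limma voom, 258 at a fold above 2, 20 to 539 with one library left out, and 0 with glmTreat, which gave 901 genes an unadjusted p under 0.05. The cause of these differences was not tested, except that fewer libraries were fitted in some.

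The replicate numbers did not pair the ETH 3 h and 0 h libraries (correlations of same-numbered deviations -0.21, 0.39 and -0.50, and not every library correlated best with its own number). For ETH 3 h against MJ 3 h the correlations were 0.77, 0.51 and -0.25, and replicate 1 was the library with the highest young leaf factors in both groups. For ETH 24 h against ETH 3 h they were 0.28, 0.28 and -0.28. With the replicate block, 2092, 1179 and 532 genes were called in the 3 comparisons, and 46 of the 48 called named genes were called again, all but PUX4 and AFP3.

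Of those 48 genes, 18 kept the call in every setting and 29 whichever library was left out. Direction changed for 2 of the 73 genes followed, neither called. CRF3 had -0.60 without ETH 3 h replicate 1 (range -0.60 to 2.17 over libraries left out). The YAB2 gene CRO_017125 had -0.12 with limma voom and -0.95 without ETH 3 h replicate 1 (range -0.95 to 2.01). At 0 h, genes such as CRO_003531 and CRO_013307 had 1 to 3 counts a library, so depth limits their folds.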
